A study of Mus musculus with 16 samples.

Results

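Respiratory chain subunits were taken as every gene of the count table whose symbol names a subunit of complex I (Nduf followed by a, b, c, s or v and a digit), complex II (Sdha to Sdhd), complex III (Uqcr), complex IV (Cox4 to Cox8) or the ATP synthase (Atp5), together with the mitochondrially encoded mt-Nd, mt-Co, mt-Cytb and mt-Atp genes, without pseudogene names. This gave 98 genes of the 38720 in the table, 85 encoded in the nucleus and 13 in the mitochondrial genome. By name, 37 of the nuclear-encoded genes belonged to complex I, 4 to complex II, 8 to complex III, 18 to complex IV and 18 to the ATP synthase, which is counted here as complex V. RNA had been sequenced from adipose progenitors, the stromal cells that give rise to fat cells, of C57BL/6J mice at 4 weeks of age. The mice were wild type (Nr4a1+/+, here WT) or lacked Nr4a1, which encodes an orphan nuclear receptor (Nr4a1-/-, here KO), and the cells came from subcutaneous (SAT) or visceral (VAT) fat. Each of the 4 groups (WT SAT, KO SAT, WT VAT and KO VAT) had 4 libraries. The KO genotype is labelled B6;129S2-Nr4a1tm1Jmi/J, a targeted allele whose stock name includes 129S2, although the strain of every library is labelled C57BL/6J. Effects of 129S2 sequence near the allele and of the targeted allele itself cannot be told apart. All groups shared the age and the cell type, and no treatment is labelled. The 4 libraries of a group are described as biological replicates, without saying whether each came from its own animal, so p-values measure the spread between these libraries, which may be partly technical.

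The respiratory chain passes electrons from NADH (complex I) and succinate (complex II) through complex III to oxygen at complex IV. Complexes I, III and IV pump protons across the inner mitochondrial membrane, and the ATP synthase uses the gradient to make ATP. Complex II is built from nuclear-encoded subunits alone, whereas the other complexes join subunits from both genomes. In fat, the chain is known for heat production in brown and beige adipocytes, where uncoupling by Ucp1 lets protons return without making ATP.

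Library totals ranged from 34655519 to 55551845 counts, and the members held between 1.137% and 1.993% of them. Of the 98 members, 88 passed the low-count filter, 81 nuclear and 7 mitochondrial. Levels are given below as CPM (counts scaled to a common library size, with TMM factors), and comparisons between genes as CPM per kb of mRNA. As a check of the labels, Nr4a1 itself stood at 997 to 1212 CPM in WT SAT and 195 to 209 in KO SAT, and in VAT at 1432 to 1649 CPM (WT) and 297 to 327 CPM (KO). Its transcript was thus lower in every KO library but still counted. WT SAT replicate 3 stood apart on these genes and touches the results that use WT SAT. In this library the nuclear-encoded members summed to 7575 CPM against 4993 to 5184 in the other 3 libraries. Of its 81 tested nuclear-encoded members, 77 lay above the median of the other WT SAT libraries, with a median log2 deviation of 0.70. In WT VAT the same medians were -0.15 and -0.18 in replicates 1 and 2 and 0.17 in replicates 3 and 4, with 77 and 76 members above in those last 2, so WT SAT replicate 3 stands apart by the size of its deviation and not by that count. Results that rest on it are given with and without it.

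**Figure D1:**
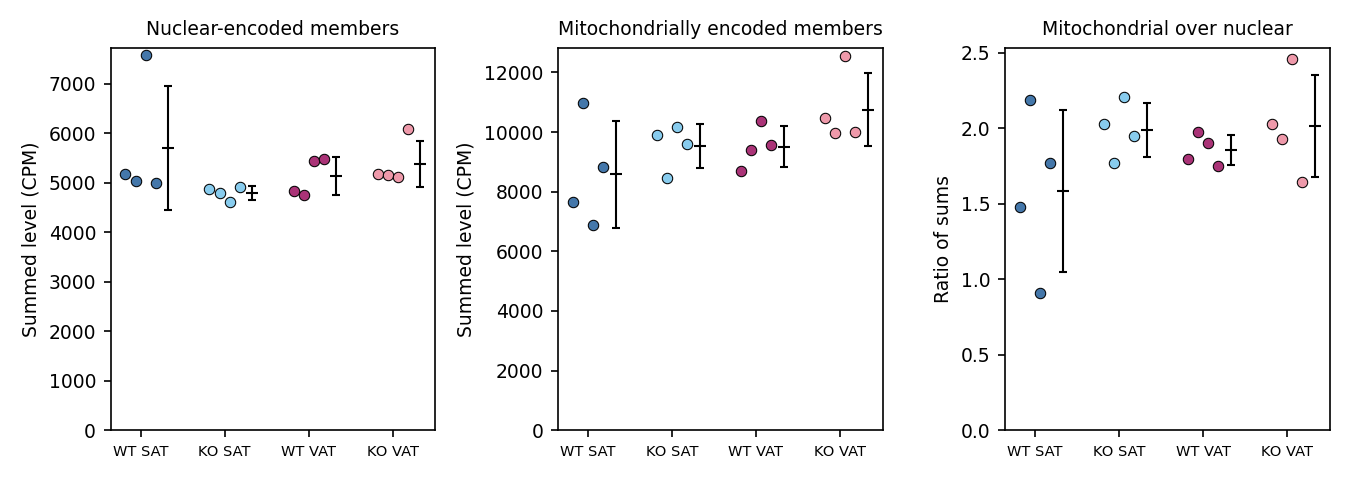
Summed level (CPM) of the nuclear-encoded members (left) and of the mitochondrially encoded members (middle), and the ratio of the sums (right), with 1 point per library and the mean and SD of each group (n = 4) beside it. WT SAT replicate 3 sits at 7575 CPM on the left and at a ratio of 0.908 on the right, apart from the other 3 WT SAT libraries.

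The deviation of WT SAT replicate 3 moved with mRNA length. Among tested protein-coding genes outside the set, the median log2 deviation of this library was 0.59 for 887 genes with an mRNA under 1 kb, 0.30 for 3281 genes of 1 to 2 kb and -0.30 for 4375 genes over 4 kb. Nuclear-encoded members are short, with a median mRNA length of 838 bases against 2890.5 bases for all tested protein-coding genes. Subunits of the cytosolic ribosome, a list added after seeing the data, deviated by a median of 0.86 in the same library, and those of the mitochondrial ribosome by 0.58. The 7 mitochondrially encoded members deviated the other way, by a median of -0.30. KO VAT replicate 4 showed the same pattern at a smaller size, with a median of 0.28 over the nuclear-encoded members and 0.25 over other genes under 1 kb. It also held the highest KO VAT level of the muscle genes Acta1, at 23.5 CPM (lowest of the group 0.670), and Ckm, at 2.11 CPM (lowest 0). The parts of mRNA length and of muscle transcripts in the results were not tested.

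**Figure D2:**
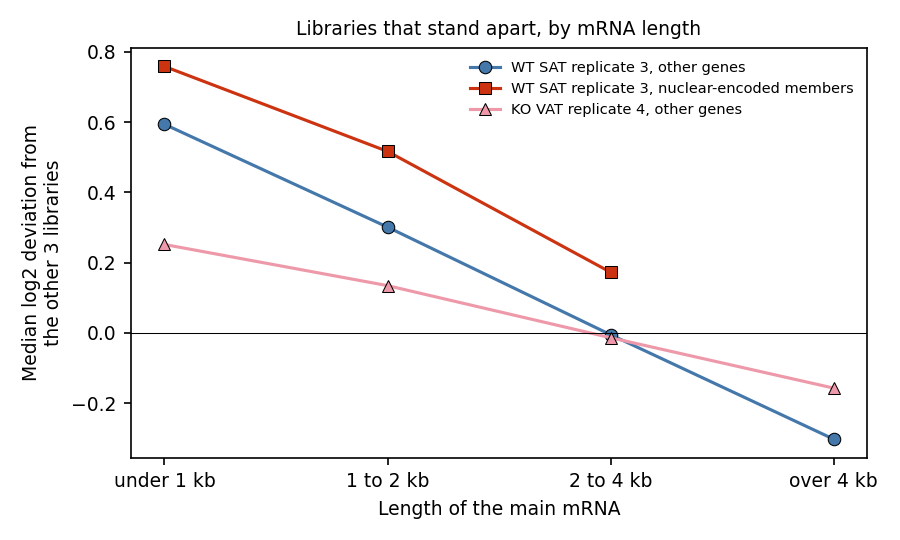
Median log2 deviation of a library from the median of the other 3 libraries of its group (y axis) by length of the main mRNA (x axis), for genes outside the set and for nuclear-encoded members (51, 22 and 8 in the first 3 classes). In WT SAT replicate 3 the other genes fell from 0.59 under 1 kb to -0.30 over 4 kb.

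The most abundant members per length were mitochondrially encoded. mt-Cytb, the cytochrome b of complex III, stood at 2025 CPM per kb averaged over the 16 libraries, mt-Co1, the catalytic subunit of complex IV, at 1912 and mt-Nd1, a membrane subunit of complex I, at 1719. Among nuclear-encoded members, the catalytic beta subunit of the ATP synthase, Atp5b, led with 304 CPM per kb, followed by Cox4i1 of complex IV at 243. The other complexes were led by Uqcrh of complex III at 172, Ndufa4 at 130 and Sdha, the flavoprotein of complex II, at 67.8. Ndufa4 is grouped with complex I by its name, although it is now regarded as a complex IV subunit. At the low end stood Ndufb4 in complex I at 5.06, Sdhc in complex II at 24.6 and Uqcrfs1, the Rieske protein of complex III, at 38.1. In complexes IV and V the lowest were Cox7b2 at 0.0236 and Atp5l2 at 0.106, neither of which passed the filter. Atp5l2 is a member by its name in the count table, and GENCODE lists it as a processed pseudogene, Atp5l2-ps. Low values need care where a transcript has copies: 35.2% of the 75-base stretches of Ndufb4, the length of 1 read here, also occur in another annotated gene. For Atp5l, at 1.44 CPM per kb, the share was 63.4%, and for the 85 nuclear-encoded members it reached 10% or more in 13 and was 0 in 60.

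Summed over all nuclear-encoded members, the level was 5697 ± 1255 CPM in WT and 4801 ± 139 in KO for SAT, and 5132 ± 382 in WT and 5384 ± 471 in KO for VAT (SD, n = 4 each). The mitochondrially encoded sum was 8590 ± 1793, 9531 ± 749, 9509 ± 678 and 10745 ± 1221 CPM in the same order (SD, n = 4). The ratio of the mitochondrial to the nuclear sum overlapped between all groups, from 0.908 in WT SAT replicate 3 to 2.45 in KO VAT replicate 3. As in any bulk sample, fewer cells of a type and less RNA per cell cannot be told apart in these levels.

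Of the 13 mitochondrially encoded members, 6 had almost no counts. They lie side by side on the mitochondrial genome, from mt-Co2 through mt-Atp8, mt-Atp6, mt-Co3 and mt-Nd3 to mt-Nd4l, and encode subunits of complex IV, the ATP synthase and complex I. mt-Atp8, mt-Atp6 and mt-Nd4l had 0 counts in every library, mt-Co2 had 1 count in 1 library, mt-Co3 had 3 counts in 1 library, and mt-Nd3 reached 6 counts at most. Their neighbours on both sides were among the most abundant genes. Between 97.8% (mt-Nd3) and 99.9% (mt-Co3) of the 75-base stretches of 5 of the 6 genes occur letter for letter in annotated copies on chromosome 1. The copies follow each other there on the opposite strand, with that of mt-Co2, Gm28661, at chr1:24614885-24615565 and that of mt-Nd4l, Gm10222, at chr1:24612407-24612700 (GRCm38, GENCODE vM21). The longest identical run between mt-Co2 (chrM:7013-7696) and its copy was 681 bases, and the longest between mt-Co3 and Gm28437 was 783 bases. The first 75 bases of both genes are shown because a read of either stretch matches both places equally, and lower case is used throughout since no base differs.
mt-Co2, chrM:7013-7087 and chr1:24615491-24615565: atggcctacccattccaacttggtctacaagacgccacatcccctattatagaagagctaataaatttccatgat
mt-Co3, chrM:8607-8681 and chr1:24613897-24613971: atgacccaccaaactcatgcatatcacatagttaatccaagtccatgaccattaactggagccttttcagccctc
mt-Atp8 had no such stretch in an annotated gene. It overlaps mt-Atp6 on the same strand (chrM:7766-7969 and chrM:7927-8607), but 0% of its 75-base stretches also occur in that gene. Of the copies on chromosome 1, only Gm10222 has a row in the count table. mt-Nd4 shared 61.5% of its stretches with Gm28439 and mt-Co1 39.8% with 2 annotated genes, Gm29216 among them, and both kept high counts, while mt-Nd1, mt-Nd6 and mt-Cytb shared 0%. How reads that match several places were counted is not given in the sources used here, and its part in these values was not tested. These 6 genes give no information on the conditions.

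**Figure D3:**
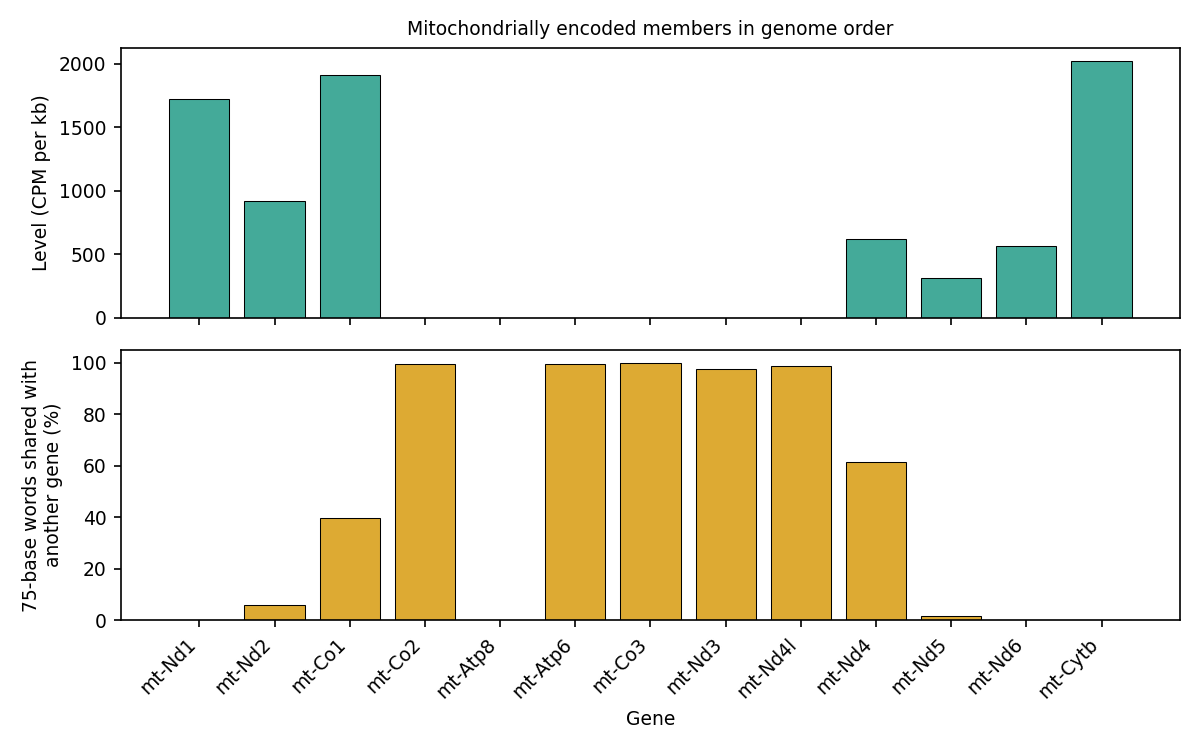
Level of each mitochondrially encoded member in the order of the genome (upper panel, CPM per kb, mean of 16 libraries) and the share of its 75-base stretches found in another annotated gene (lower panel, %). The 6 genes from mt-Co2 to mt-Nd4l have no visible bar above, and 5 of them reach 97.8% or more below.

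Loss of Nr4a1 in subcutaneous progenitors was compared first. Of the 88 tested members, 3 were lower in KO SAT than in WT SAT and 0 were higher, beside 2.43% of all 16842 tested genes lower and 3.46% higher. The 3 were Ndufb6, an accessory subunit of complex I, Cox8a, the ubiquitous form of the smallest complex IV subunit, and Ndufa4l2, a hypoxia-inducible relative of Ndufa4. Ndufb6 stood at 21.2, 19.9, 27.1 and 17.6 CPM in WT SAT replicates 1 to 4 and at 17.4, 14.6, 15.1 and 15.9 in KO SAT. The groups did not overlap, although the highest KO SAT library lay just below the lowest WT SAT library. The log2 fold change was -0.45 ± 0.11 (SE, adjusted p = 0.0232, edgeR). Without WT SAT replicate 3 it was -0.32 (adjusted p = 0.0421). Cox8a stood at 85.6, 82.6, 103 and 76.4 CPM in WT SAT and at 70.8, 60.5, 67.2 and 68.9 in KO SAT. All 4 KO libraries lay below all 4 WT libraries, with a log2 fold change of -0.38 ± 0.09 (SE, adjusted p = 0.026, edgeR). Without WT SAT replicate 3 it was -0.29 and no longer passed (adjusted p = 0.0591, and from 0.00436 to 0.0918 over all alternatives). Ndufa4l2 stood at 36.9, 45.9, 47.5 and 33.0 CPM in WT SAT and at 35.3, 20.9, 31.0 and 25.8 in KO SAT. Here the groups overlapped, with a log2 fold change of -0.53 ± 0.15 (SE, adjusted p = 0.0447, edgeR). The Ndufa4l2 call was lost without any 1 of WT SAT replicates 1, 2 and 3 and KO SAT replicates 2, 3 and 4, and that of Cox8a also without WT SAT replicate 1. The summed pericyte and smooth muscle markers were 2553 to 4359 CPM in WT SAT against 2051 to 2835 CPM in KO SAT. For each of the single markers Rgs5, Myh11, Notch3 and Cspg4, the lowest WT SAT level was that of WT SAT replicate 3. Sums without that library are not given here, and the part of these markers in this call was not tested. Without WT SAT replicate 3, 1 member was called lower, beside 2.11% of all tested genes. Without WT SAT replicate 4 there were 5, and without any 1 of KO SAT replicates 2, 3 and 4 the count was 0. For those fits the share of all tested genes was not counted. Reads of Ndufb6 may in part come from Smim27 on the other strand, since 27.8% of its stretches overlap that gene and the handling of strand is not given in the sources used here.

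Those 3 included, 78 of the 81 tested nuclear-encoded members had a negative estimate in KO SAT, with a median log2 fold change of -0.27 against -0.01 over all tested genes. This shift rested on WT SAT replicate 3: without it, 63 of 81 estimates were negative and the median was -0.07. By complex the medians were -0.27 (I), -0.11 (II), -0.29 (III), -0.33 (IV) and -0.24 (V) with all libraries, and -0.07, -0.07, -0.08, -0.09 and -0.04 without it. Genes outside the set with an mRNA under 1 kb had a median of -0.21 with all libraries. The 7 tested mitochondrially encoded members went the other way, with estimates from 0.07 (mt-Nd1) to 0.32 (mt-Nd5), none of which passed the test. Without WT SAT replicate 3, 6 were positive and mt-Co1 stood at -0.01, with mt-Nd5 at 0.14 and the highest, mt-Nd6, at 0.22.

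**Figure D4:**
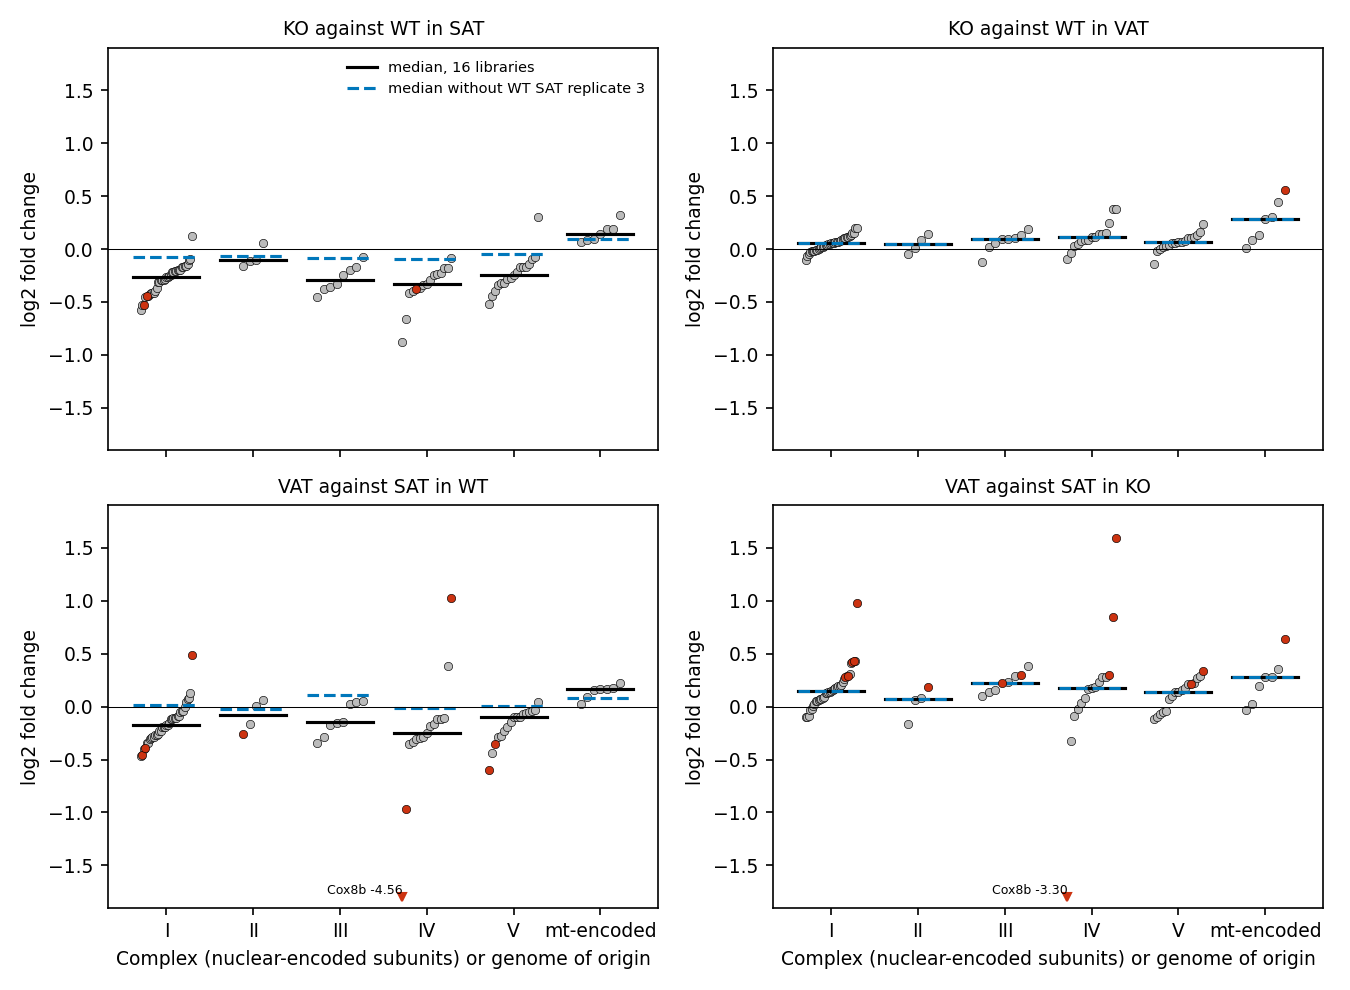
log2 fold change (y axis) of each tested member in the 4 comparisons, for nuclear-encoded members by complex and for mitochondrially encoded members together (x axis). Red points passed an adjusted p of 0.05, solid lines are medians with 16 libraries and dashed lines medians without WT SAT replicate 3; Cox8b lies off the scale at -4.56 and -3.30 and is drawn as a triangle at the edge. In SAT the medians of the nuclear complexes move to near 0 without that library.

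In visceral progenitors loss of Nr4a1 left nuclear-encoded subunits without a call. A count of 1 member was higher in KO VAT than in WT VAT and 0 were lower, beside 2.84% of all tested genes higher and 1.26% lower. It was mt-Nd6, a complex I subunit and the only protein-coding gene on the light strand of the mitochondrial genome. mt-Nd6 stood at 268, 237, 334 and 257 CPM in WT VAT and at 396, 291, 479 and 446 in KO VAT. Of the 4 KO libraries, 3 lay above all WT libraries. The log2 fold change was 0.56 ± 0.15 (SE, adjusted p = 0.0474, edgeR), and the call was lost without any 1 of WT VAT replicates 1, 2 and 4 or KO VAT replicates 1, 3 and 4. In SAT the estimate for mt-Nd6 was 0.08 ± 0.15 (SE), and the difference between depots had an adjusted p of 0.287. mt-Nd5, the neighbouring complex I gene on the heavy strand, stood at 567, 533, 548 and 483 CPM in WT VAT and at 807, 630, 858 and 601 in KO VAT. These groups did not overlap, with a log2 fold change of 0.44 ± 0.17 (SE, adjusted p = 0.185, edgeR). With WT SAT replicate 3 left out of the fit, in which all libraries share 1 estimate of the spread, mt-Nd5 was called too (adjusted p = 0.0349). mt-Cytb also did not overlap, with WT VAT at 1953 to 2473 CPM and KO VAT at 2569 to 3188 CPM and an adjusted p of 0.25. The remaining estimates were 0.28 for mt-Nd4, 0.14 for mt-Nd2, 0.09 for mt-Nd1 and 0.01 for mt-Co1, so the 7 genes, although all positive, differed in size. Since strand was not stated to be used, reads of mt-Nd6 cannot be told apart from reads of the opposite strand. Among the nuclear-encoded members the median was 0.06, with 64 of 81 estimates positive. Without both libraries that stand apart it was -0.01 with 36 of 81 positive. Groups without overlap also occurred among nuclear-encoded members, such as Sdhd, with WT VAT at 51.8 to 60.6 CPM and KO VAT at 60.9 to 62.5. The share of all tested genes without overlap was not counted.

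Depots were compared next, within each genotype. In WT, 2 members were higher and 7 lower in VAT than in SAT, beside 19.1% and 17.6% of all tested genes. Cox4i2, the hypoxia-linked alternative form of Cox4i1, stood at 4.93, 8.27, 9.82 and 5.26 CPM in WT SAT and at 12.2, 14.0, 13.0 and 17.9 in WT VAT. Every VAT library lay above every SAT library, with a log2 fold change of 1.02 ± 0.19 (SE, adjusted p = 0.000472, edgeR). Ndufa4l2 stood at 48.5, 54.1, 56.04 and 69.4 CPM in WT VAT, above all WT SAT libraries, a log2 fold change of 0.48 ± 0.15 (SE, adjusted p = 0.0156). Its call was lost without any 1 of WT SAT replicates 1 and 4 and WT VAT replicate 4.

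The lower members were led by Cox8b, the form of complex IV subunit 8 that is known from heart, skeletal muscle and brown fat. It stood at 5.25, 5.95, 8.28 and 3.96 CPM in WT SAT and at 0.347, 0.125, 0.376 and 0.136 in WT VAT. The VAT libraries rested on 6 to 19 counts each against 168 to 248 in SAT, and the log2 fold change was -4.56 ± 0.51 (SE, adjusted p = 1.78e-06, edgeR). Cox7a1, the corresponding muscle and brown fat form of subunit 7a, stood at 2.17, 1.81, 4.17 and 1.96 CPM in WT SAT and at 1.496, 0.976, 1.37 and 1.30 in WT VAT. The groups did not overlap, and the log2 fold change was -0.96 ± 0.27 (SE, adjusted p = 0.00948), or -0.62 (adjusted p = 0.0404) without WT SAT replicate 3. Sdhd, a membrane anchor of complex II, stood at 65.9, 62.0, 75.6 and 63.4 CPM in WT SAT and at 55.1, 51.8, 56.2 and 60.6 in WT VAT, a log2 fold change of -0.25 ± 0.07 (SE, adjusted p = 0.00623). Atp5sl, named for its likeness to an ATP synthase factor but also known as Dmac2, an assembly factor of complex I, had a log2 fold change of -0.35 ± 0.09 (SE, adjusted p = 0.00384). Sdhd and Atp5sl kept their calls under all 18 alternatives, as did Cox4i2, Cox8b and Cox7a1. The other 3 were Atp5e (-0.60), the epsilon subunit of the ATP synthase, and the complex I subunits Ndufa3 (-0.46) and Ndufa1 (-0.39). These 3 lost their calls without WT SAT replicate 3, where their log2 fold changes were -0.21, -0.22 and -0.16. Without that library 3 members were higher and 4 lower, beside 19.2% and 17.3% of all tested genes, and the median of the nuclear-encoded members moved from -0.17 to 0.01. Genes outside the set with an mRNA under 1 kb had a median of -0.18 with all libraries. The count lower was 14 without WT SAT replicate 2, 13 without WT SAT replicate 4 and 4 without either WT VAT replicate 1 or 2. The count higher was 1 without any 1 of WT SAT replicates 1 and 4 and WT VAT replicate 4. For these fits the share of all tested genes was not counted.

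Markers of other cell types differed between the depots and touch these genes. The brown and beige list without its members Cox8b and Cox7a1 (Ucp1, Cidea, Dio2, Ppargc1a and Elovl3) summed to 2.15 to 2.86 CPM in WT SAT and 1.93 to 2.51 in WT VAT. No library exceeded 14 counts for Ucp1 or 13 for Elovl3. The 8 muscle markers other than Cox6a2 summed to 7.08 to 15.4 CPM in WT SAT and 6.90 to 8.20 in WT VAT. Of the 5 brown and beige genes 1 was at 1 CPM or more in both WT groups, and of the 8 muscle genes 4 in WT SAT and 2 in WT VAT. In KO the brown and beige list summed to 1.97 to 2.42 CPM in SAT and 3.51 to 4.71 in VAT. The muscle list summed to 5.75 to 12.9 CPM in KO SAT and 7.14 to 33.8 in KO VAT, with the highest in KO VAT replicate 4. The 7 pericyte and smooth muscle markers, which include Rgs5 and Myh11, summed to 2553 to 4359 CPM (SAT) and 5281 to 5758 CPM (VAT) in WT, and to 2051 to 2835 CPM (SAT) and 4864 to 6258 CPM (VAT) in KO. All 7 were at 1 CPM or more in each group, and their sum was higher in every VAT than in every SAT library, the direction of Cox4i2 and Ndufa4l2. Single markers differed: Rgs5 and Myh11 did not overlap between depots in either genotype, whereas Notch3 and, in WT, Cspg4 did. Notch3 ranged over 153 to 561 CPM (SAT) and 380 to 490 CPM (VAT) in WT, and 236 to 362 CPM (SAT) and 301 to 489 CPM (VAT) in KO. Cspg4 ranged over 46.1 to 86.9 CPM (SAT) and 82.1 to 94.6 CPM (VAT) in WT. The 7 mesothelium markers summed to 6.63 to 10.4 CPM over the SAT libraries and 790 to 1533 over the VAT libraries. The 9 adipose progenitor markers were all at 1 CPM or more in each group, with sums of 51430 to 66402 CPM in SAT and 22656 to 26184 in VAT. The 8 adipocyte markers, 7 of them at 1 CPM or more in each group, summed to 1325 to 1804 CPM (SAT) and 1310 to 1482 CPM (VAT) in WT, and to 1049 to 1484 CPM (SAT) and 1574 to 2558 CPM (VAT) in KO. In KO they were thus higher in every VAT than in every SAT library. The 7 endothelium markers went the other way, with sums of 206 to 231 CPM (SAT) and 120 to 134 CPM (VAT) in WT and 229.8 to 309 CPM (SAT) and 95.1 to 114 CPM (VAT) in KO. The part of other cells in the depot results was not tested.

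In KO, 14 members were higher and 1 lower in VAT than in SAT, beside 23.3% and 20.0% of all tested genes. Cox4i2 stood at 5.50, 3.37, 4.34 and 4.57 CPM in KO SAT and at 13.6, 14.5, 13.0 and 12.5 in KO VAT, a log2 fold change of 1.59 ± 0.20 (SE, adjusted p = 5.14e-06, edgeR). Ndufa4l2 stood at 57.6, 54.9, 56.4 and 54.5 CPM in KO VAT, above all KO SAT libraries, with 0.98 ± 0.15 (SE, adjusted p = 3.82e-05). Both genes thus had the same direction in both genotypes. Cox6b2, the testis form of complex IV subunit 6b, stood at 4.18, 3.45, 4.02 and 4.59 CPM in KO SAT and at 5.87, 5.85, 7.56 and 10.01 in KO VAT. This was a log2 fold change of 0.85 ± 0.17 (SE, adjusted p = 0.000689), and 0.66 without both libraries that stand apart.

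mt-Nd6 rose by 0.64 ± 0.15 (SE, adjusted p = 0.00231), Ndufs8, an iron-sulfur subunit of complex I, by 0.42 ± 0.12 (adjusted p = 0.00979) and Cox8a by 0.30 ± 0.09 (adjusted p = 0.0162). Uqcrc2, a core protein of complex III, rose by 0.22 ± 0.06 (SE, adjusted p = 0.00396). Sdhc, the other membrane anchor of complex II, rose by 0.19 ± 0.06 (SE, adjusted p = 0.019), while Sdhd was lower with a log2 fold change of -0.17 ± 0.07 and did not pass (adjusted p = 0.053). A further 5 called genes, among them Atp5b (0.21), Atp5g3 (0.33) and Ndufb6 (0.28), rose by 0.21 to 0.33 on the log2 scale. Several of these calls rested on single libraries. That of Atp5b was lost without any 1 of KO SAT replicates 2 and 3 and KO VAT replicates 1 and 4, and that of Atp5g3 without any 1 KO SAT replicate or KO VAT replicate 4. Ndufb6 lost its call without any 1 of KO SAT replicates 2, 3 and 4 or any 1 KO VAT replicate, Sdhc without KO SAT replicate 2 or 3, and Cox8a without KO SAT replicate 2 or KO VAT replicate 4. Cox8b was the only member lower, at 4.25, 1.76, 2.71 and 3.96 CPM in KO SAT and 0.0812, 0.748, 0.131 and 0.328 in KO VAT. Its log2 fold change was -3.30 ± 0.49 (SE, adjusted p = 3.44e-05). Over the nuclear-encoded members the median was 0.16, with 66 of 81 estimates positive, against 0.02 over all tested genes. It was 0.05 over genes outside the set with an mRNA under 1 kb. By complex the medians were 0.15 (I), 0.07 (II), 0.23 (III), 0.18 (IV) and 0.14 (V), and all 8 members of complex III were positive. Without KO VAT replicate 4 the median over the nuclear-encoded members was 0.09. Without both libraries that stand apart it was also 0.09, with 56 of 81 positive, and the medians were 0.07 for complex I and 0.13 for complex III. With WT SAT replicate 3 left out of the fit, although no WT library enters this comparison, 33 members were called higher and 2 lower, beside 26.5% and 23.4% of all tested genes. Without any 1 of KO SAT replicates 2 and 3 and KO VAT replicate 4 the count higher was 8, and the share of all tested genes was not counted.

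The comparisons share libraries: both KO against WT in SAT and VAT against SAT in WT use WT SAT, and both depot comparisons share their libraries with the genotype comparisons. Whether the depots responded differently to loss of Nr4a1 was tested by the interaction of genotype and depot. In this test 0 members passed in either direction, beside 0.131% of all tested genes higher and 0.137% lower. At an unadjusted p under 0.05 there were 21 of 88 members with a positive and 0 with a negative interaction by edgeR, beside 2692 of all 16842 genes in either direction. Members in either direction numbered 9 without WT SAT replicate 3, beside 2701 of 17198 genes. Without both libraries that stand apart they numbered 6, beside 2430 of 16991 genes. DESeq2 and limma-voom also called 0. The median over the nuclear-encoded members was 0.35 with all libraries, 0.14 without WT SAT replicate 3 and 0.06 without both libraries that stand apart. With all libraries the median was 0.03 over all tested genes and 0.25 over genes outside the set with an mRNA under 1 kb.

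**Figure D5:**
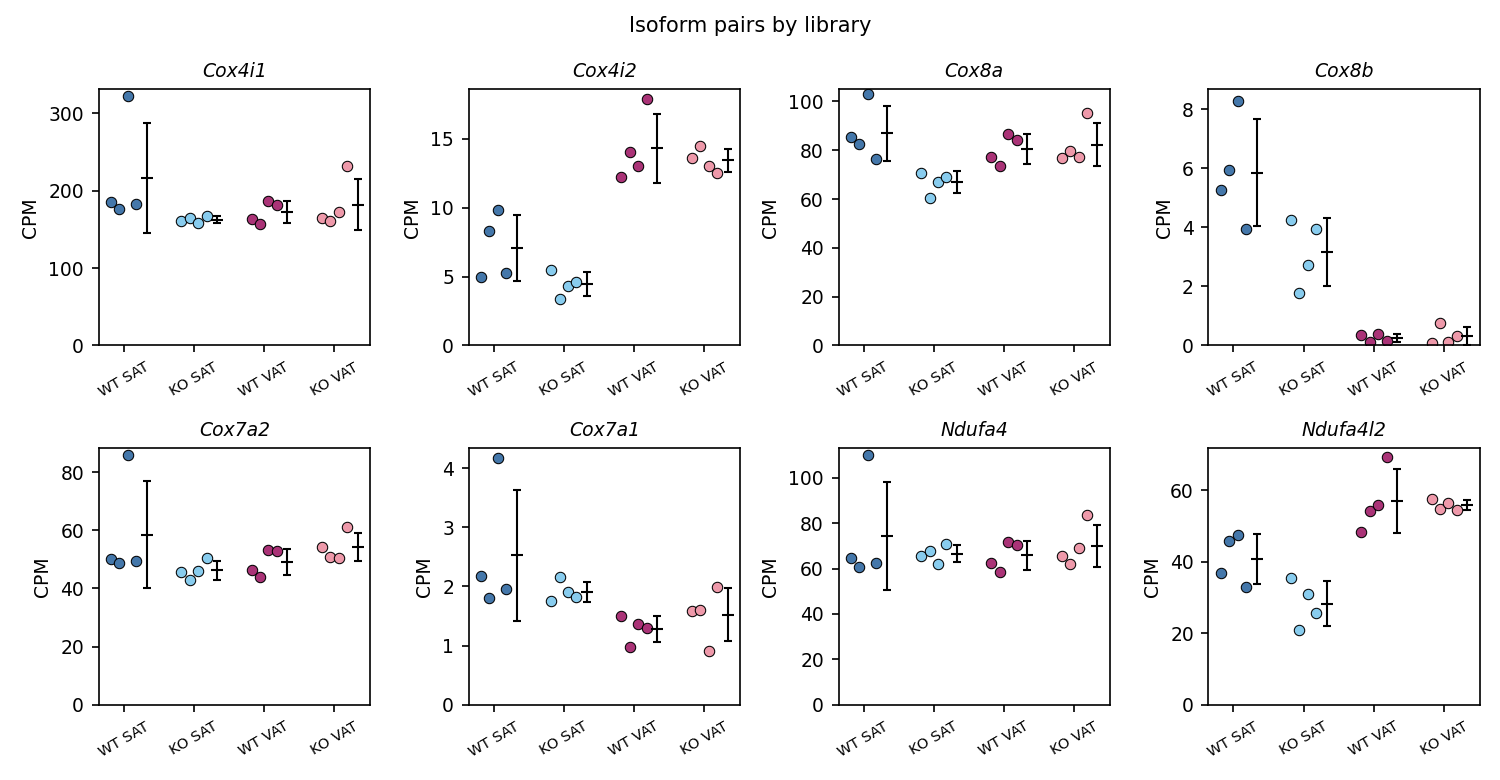
Level (CPM, linear axis from 0) of 4 pairs of subunit isoforms in each library, with 1 point per library and the mean and SD of each group (n = 4). Cox4i2 and Ndufa4l2 are higher in every VAT library than in every SAT library of the same genotype, and Cox8b is lower, while Cox4i1, Cox8a, Cox7a2 and Ndufa4 overlap between depots in WT.

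In WT, the ubiquitous partners of the isoforms that differed between depots did not pass the same test. In VAT against SAT in WT, Cox4i1 had a log2 fold change of -0.33 ± 0.16 (SE, adjusted p = 0.126), Cox8a of -0.11 ± 0.09 (adjusted p = 0.396), Cox7a2 of -0.25 ± 0.15 (adjusted p = 0.197) and Ndufa4 of -0.18 ± 0.15 (adjusted p = 0.404). Without WT SAT replicate 3 no partner was called in WT either. In KO with all libraries, Cox8a was called higher in VAT, as given above, while Cox4i1, Cox7a2 and Ndufa4 were not called. In level, Cox4i1 at 243 CPM per kb stood above Cox4i2 at 13.4, Cox8a at 144 above Cox8b at 6.67 and Cox7a2 at 78.9 above Cox7a1 at 4.61. Cox6a1 and Cox6b1 stood at 184 and 133 CPM per kb, and Cox7a2l, an assembly factor of supercomplexes, and Cox7b at 61.7 and 48.5. None of these 4 was called in any comparison. The muscle form Cox6a2 had 24 counts over all 16 libraries. The testis forms Cox7b2 and Cox8c had 10 and 47 counts, and theirs were all in VAT libraries. With Atp5l2, which had 24 counts, these were the 4 nuclear-encoded members that did not pass the filter. The 3 genes for the same c subunit of the ATP synthase ring differed in level, with Atp5g3 at 222 CPM per kb, Atp5g2 at 15.2 and Atp5g1 at 10.2. Atp5g2 shares 35.8% of its stretches with other genes. Atp5g2 is also the only member within 10 Mb of Nr4a1, at 1.388 Mb on chromosome 15, and was not called between genotypes (-0.10 ± 0.13 in SAT and 0.04 ± 0.13 in VAT, SE).

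Complex II, the complex without mitochondrially encoded subunits, is given gene by gene. The SAT libraries held 202, 206, 200 and 196 CPM (WT) and 190, 179, 187 and 196 CPM (KO) of Sdha. The VAT libraries held 198, 202, 205 and 206 CPM (WT) and 198, 204, 187 and 194 CPM (KO). These values lie within 179 to 206 CPM, and no comparison passed the test. In SAT the groups did not overlap, with the highest KO library at 195.6 CPM and the lowest WT library at 196.1. Sdhb, the iron-sulfur subunit, stood at 51.9 to 73.3 CPM in WT SAT and 48.0 to 61.2 in the other 3 groups, with no call. Sdhc ranged over 71.9 to 82.8 CPM (WT) and 69.6 to 75.0 CPM (KO) in SAT. In VAT it ranged over 77.3 to 86.5 CPM (WT) and 79.1 to 83.7 CPM (KO). For Sdhd the KO libraries held 67.2 to 71.5 CPM in SAT and 60.9 to 62.5 in VAT. Every KO VAT library thus lay above every WT VAT library, the highest of which was 60.6 CPM, without a call. The sum over the 4 genes was 405 ± 19.3 CPM in WT and 382 ± 9.71 in KO for SAT, and 393 ± 14.9 in WT and 396 ± 7.33 in KO for VAT (SD, n = 4).

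Promoters were available from RefSeq (GRCm38.p6) for 69 of the 85 nuclear-encoded members. The 250 bases before the transcription start were searched on both strands for motifs of factors known to act on these genes or related to Nr4a1. AAAGGTCA, the monomer site of the Nr4a family, was in 0 of 69 promoters and in 1.31% of all 27025 promoters of that length. TCAAGGTCA, the extended site of the estrogen-related receptors, was in 1 (Atp5g3), beside 0.366% of all, and AGGTCA, which both of those contain, was in 11, or 15.9%, beside 13.8%. GCGCANGCG, a form of the NRF1 site, was in 13, or 18.8%, beside 5.33% of all, and CCGGAAG, the ETS site bound by GABPA, in 11, or 15.9%, beside 7.05%. AAGATGGCG, the YY1 site, was in 0 of 69 and 0.607% of all. A match is only a description of letters in this window. Promoters are shown for the sister genes Cox8a and Cox8b, of which Cox8b was lower in VAT in both genotypes, and for Ndufb6, called between genotypes in SAT, and Ndufs8, called between depots in KO. They run 5′ to 3′ along the gene, end at the base before the RefSeq start, and have matches to the motifs above in capitals.
Cox8a: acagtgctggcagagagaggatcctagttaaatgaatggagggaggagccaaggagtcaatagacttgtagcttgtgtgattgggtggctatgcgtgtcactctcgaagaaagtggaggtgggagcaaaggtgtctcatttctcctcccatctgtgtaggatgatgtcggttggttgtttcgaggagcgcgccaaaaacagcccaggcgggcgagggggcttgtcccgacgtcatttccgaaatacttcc
Cox8b: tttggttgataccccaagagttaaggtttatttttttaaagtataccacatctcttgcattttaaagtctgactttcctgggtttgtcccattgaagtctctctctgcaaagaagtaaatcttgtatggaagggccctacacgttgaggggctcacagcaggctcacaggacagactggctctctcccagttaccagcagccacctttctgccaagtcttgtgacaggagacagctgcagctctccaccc
Ndufb6: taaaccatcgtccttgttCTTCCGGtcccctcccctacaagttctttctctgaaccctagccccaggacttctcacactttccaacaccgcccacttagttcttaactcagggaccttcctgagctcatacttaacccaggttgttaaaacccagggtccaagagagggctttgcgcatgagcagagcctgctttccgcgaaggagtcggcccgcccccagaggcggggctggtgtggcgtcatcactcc
Ndufs8: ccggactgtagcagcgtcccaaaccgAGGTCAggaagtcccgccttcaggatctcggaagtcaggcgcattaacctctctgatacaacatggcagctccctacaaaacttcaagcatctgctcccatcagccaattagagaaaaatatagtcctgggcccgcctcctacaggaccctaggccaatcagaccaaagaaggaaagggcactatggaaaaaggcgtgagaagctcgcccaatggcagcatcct
The 4 windows are chr19:7217617-7217866 (Cox8a), chr7:140900447-140900696 (Cox8b), chr4:40279422-40279671 (Ndufb6) and chr19:3912775-3913024 (Ndufs8), all on the minus strand. Ndufb6 holds 1 CCGGAAG match, read on the other strand, that begins 232 bases before the start, and Ndufs8 holds 1 AGGTCA match that begins 224 bases before it. None of the 7 motifs, TATAAA included, was found in the windows of Cox8a and Cox8b, which are 52.8% and 47.2% G and C.

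Other genes of the pathway were read from lists, whose counts stand beside the shares of all tested genes given above. Higher in VAT were 19.1% in WT and 23.3% in KO, and lower in VAT 17.6% and 20.0%. Of 42 tested assembly factors, 1 was lower in KO SAT, or 0 without WT SAT replicate 3. It was Cox10, which makes heme o, the precursor of the heme a of complex IV (-0.49 ± 0.14, adjusted p = 0.0456, edgeR). In KO VAT 1 was higher, Atpaf2, an ATP synthase assembly factor (0.28 ± 0.07, adjusted p = 0.0388, edgeR). Between depots 1 was higher and 3 lower in WT, led by Uqcc2, a complex III assembly factor (-0.92 ± 0.20), or 2 and 1 without WT SAT replicate 3, and 3 were higher and 3 lower in KO. Of 17 subunits and electron carriers outside the naming rule, such as Cyc1 and Cycs, 0 changed between genotypes. In VAT against SAT, 1 was higher and 2 lower in WT, or 3 and 2 without WT SAT replicate 3. In KO 5 were higher and 2 lower. Among the genes higher in KO, Cyc1, the cytochrome c1 of complex III, rose by 0.27 ± 0.08 and Cycs, cytochrome c, by 0.41 ± 0.12 (SE). Of 33 genes for mitochondrial gene expression, 0 changed in KO SAT and 1 was higher in KO VAT. It was Polg2, the accessory subunit of the mitochondrial DNA polymerase (0.61 ± 0.10, adjusted p = 0.00129, edgeR). In VAT against SAT, 2 were higher and 2 lower in WT, or 0 and 3 without WT SAT replicate 3. In KO 3 were higher and 2 lower. Of 75 mitochondrial ribosome genes, 0 changed between genotypes in either depot. In VAT against SAT, 0 were higher and 6 lower in WT, or 4 and 3 without WT SAT replicate 3. In KO 6 were higher and 2 lower. Of 80 tested cytosolic ribosome genes, the list added after seeing the data, 0 were higher and 57 lower in VAT in WT. Without WT SAT replicate 3, 29 of them were lower. In KO 0 were higher and 2 lower, or 13 lower with that library left out of the fit.

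Of 18 tricarboxylic acid cycle genes, which feed electrons to the chain, 10 were higher in VAT than in SAT in KO and 3 in WT, and 0 were lower in either. Between genotypes 1 was lower in KO SAT, Idh3g, a subunit of isocitrate dehydrogenase (-0.23 ± 0.07, adjusted p = 0.0488), or 0 without WT SAT replicate 3, and 0 changed in KO VAT. Cs, citrate synthase, stood at 144 ± 2.50 CPM in KO SAT and 195 ± 12.6 in KO VAT (SD, n = 4). Of 15 glycolysis genes, 10 were higher in VAT in KO and 4 in WT, led in both by Ldhb (1.56 ± 0.15 and 1.14 ± 0.15). In the interaction of genotype and depot 0 genes of the tricarboxylic acid cycle list and 0 of the glycolysis list passed. The glycolytic enzyme Aldoa was lower in KO SAT (-0.36 ± 0.07, adjusted p = 0.0072), and Pgk1 (0.30 ± 0.07, adjusted p = 0.0252) and Hk2 (0.63 ± 0.16, adjusted p = 0.03) were higher in KO VAT. Of 18 tested regulators of mitochondrial biogenesis, 0 changed in KO SAT and 1 was lower in KO VAT, the transcription factor Myc (-0.38 ± 0.10, adjusted p = 0.0498). Between depots 1 was higher and 1 lower in VAT in WT, or 0 and 2 without WT SAT replicate 3. In KO 3 were higher and 1 lower in VAT. Those higher in KO were Ppargc1b (0.71 ± 0.19) and Ppargc1a (0.69 ± 0.22), coactivators of the program, and Esrrg (2.20 ± 0.55). Esrrg stood at a mean of 0.975 CPM or less in each group. All 20 cell division genes were higher in KO than in WT in both depots, with medians of 1.49 and 1.52, so the members were compared between populations that also differed in this list. Its part in the results was not tested. Nnt, the transhydrogenase that C57BL/6J mice are known to carry in a defective form, ranged over 52.9 to 64.4 CPM in WT and 34.3 to 52.7 in KO for SAT, and over 88.3 to 95.3 in WT and 44.7 to 67.6 in KO for VAT. It was lower in KO VAT (-0.73 ± 0.14, adjusted p = 0.00577), and in KO SAT the estimate was -0.47 ± 0.14 (adjusted p = 0.0607).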

How the data were processed

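RNA sequencing libraries of 75-base reads were made with a NEBNext Ultra kit, per the labels' protocols. STAR, featureCounts, FastQC, DESeq and the mm10 build are named in the submitters' processing notes, without versions; the handling of strand and of reads that match several places is not given in the sources used here. Raw counts per gene, as the authors deposited them, were used. Their deposited normalised signal is the same counts divided by 1 size factor per library, and was checked only. Library totals were 34655519 to 55551845 counts.

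Counts were tested with edgeR 4.0.16 (quasi-likelihood, filterByExpr, TMM) in R 4.3.3 on all 16 libraries with 1 coefficient per group. P-values were adjusted by Benjamini-Hochberg over 16842 genes, two-sided, and a gene was called at an adjusted p under 0.05. CPM are scaled by TMM. On simulated data for KO against WT in SAT over 16503 genes, 100 of 100 genes changed by 1 on the log2 scale were recovered and 41 of 100 changed by 0.5, with 8 false calls. The simulation used the same dispersion for every gene and had no library that stands apart, so its rates do not describe comparisons that use WT SAT replicate 3. Alternatives used DESeq2 1.42.0, limma 3.58.1 (voom), other scalings, no filter, only the libraries compared, a replicate block and each library left out. Lengths, positions and 75-base stretches came from GENCODE vM21 and promoters from RefSeq.

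The members and the gene lists were chosen with earlier results of these data known. Named are all mitochondrially encoded members, called members (the 8 with the smallest p where more were called in a direction), isoform pairs, complex II, the most and least abundant subunit per complex, members near Nr4a1, members that did not pass the filter, and at most 4 genes with the smallest p per list and comparison. A member that this rule would name is not reported here.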

Additional observations from a re-analysis of the deposited data

Results flagged for a closer look

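Within each group of 4, a library was singled out where its gap to the nearest other library was too large a part of the group's range by Dixon's 95% limit. Of 108 groups tested, 21 were singled out. Chance gives about 1 in 20 for separate tests. These tests share libraries, and the sums share genes, so the count cannot be set against that rate. WT SAT replicate 3 accounted for 12, KO VAT replicate 4 for 8 and KO SAT replicate 3 for 1. The part of mRNA length in this pattern was not tested beyond the medians given above.

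WT SAT replicate 3 was the highest of its group in the sum of nuclear-encoded members (7575 CPM), of complex I (2401 CPM), complex III (731 CPM), complex IV (1281 CPM) and complex V (2729 CPM). It was also the highest for Atp5e (198 CPM), Atp5g3 (220.4 CPM), Cox7a1 (4.17 CPM), Ndufa1 (60.0 CPM), Ndufa10 (74.3 CPM), Ndufa3 (74.2 CPM) and Ndufs8 (39.2 CPM).

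KO VAT replicate 4 was the highest of its group in the sum of nuclear-encoded members (6090 CPM), of complex I (1837.5 CPM), complex IV (955 CPM) and complex V (2286 CPM). It was also the highest for Atp5e (100.7 CPM), Atp5g3 (204 CPM), Cox8a (95.4 CPM) and Uqcrc1 (126 CPM). KO SAT replicate 3 was the lowest of its group for Ndufa1 (29.9 CPM).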

How the results depend on the processing

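No member called in the report changed direction under any alternative. In place of the 3 members lower in KO SAT, DESeq2 called 6 and the fit on only the libraries compared 0. The member higher in KO VAT (1) went to 0 with only the libraries compared. It went to 2 without both libraries that stand apart, an alternative chosen after seeing the data, beside 524 of all 16991 genes tested there. In VAT against SAT in WT, 9 were higher without both libraries, in place of 2, beside 3533 of all 16991 genes tested there. With only the libraries compared, 4 were lower, in place of 7. In VAT against SAT in KO, 27 were higher with only the libraries compared, in place of 14. There the count lower was 2 by DESeq2, 2 with only the libraries compared and 5 without both libraries, in place of 1. The last stood beside 3865 of all 16991 tested genes. Leaving out 1 library at a time gave 0 to 5 lower in KO SAT, 0 to 2 higher in KO VAT, 1 to 3 higher and 4 to 14 lower between depots in WT, and 8 to 33 higher and 1 to 2 lower between depots in KO. Calls over all tested genes were counted only without WT SAT replicate 3 and without both libraries. Under the other alternatives the member counts may follow the whole table. The cause of these changes was not tested. The interaction stayed at 0 under the alternatives run.

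The labels do not say whether same-numbered libraries of different groups share an animal. Correlations of same-numbered deviations ran from -0.16 to 0.18, with 0.14, 0.12, 0.11 and -0.04 between WT SAT and WT VAT. They cannot decide on pairing, since differently numbered libraries were not compared. With the replicate block 2 members were lower in KO SAT, 1 was higher in KO VAT, and the depot counts stayed at 2 and 7 in WT and 14 and 1 in KO; a block within genotype gave 2 and 10, and 19 and 1. Depth limits Cox8b in VAT (6 to 19 counts in WT) and the 4 nuclear-encoded members that did not pass the filter.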
